A study of Citrus sinensis with 6 samples.

Results

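Sulfate transport and sulfur assimilation was followed through 48 of the 29875 gene models of a leaf RNA sequencing table of sweet orange (Citrus sinensis). A gene was taken when its annotation in the table held the GO process of sulfate transport (15 genes), when it held the KEGG pathway of sulfur metabolism (32 genes), or when it was one of 3 genes named by identifier. Of these 3, Cs_ont_4g007290 and Cs_ont_3g010460 also carry the sulfate transport term, and Cs_ont_2g023170, annotated with L-cystine transporter activity, came in by its identifier alone. The 3 were named with results of these data known, so counts are also given without them, and the values of Cs_ont_2g023170 are given as a description with no test. No gene belonged to both the GO and the KEGG list. Of the 15 genes with the transport term, 11 also carry sulfate transmembrane transporter activity and 4 do not.

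The plants were tissue-cultured sweet orange seedlings kept for 25 days in nutrient solution. The control group (CK, 3 libraries) received sufficient boron, given as 0.25 mg/L in the design of the series, and the B deficiency group (T, 3 libraries) received 0.01 mg/L. Whether these doses are of boron or of boric acid differs between the sources. The treatment field of the labels has the lower dose for every library, so the groups rest on the titles. There the CK leaves are called leaf blades and the T leaves only leaf, although the tissue field is leaf blade throughout, and a difference in the part of the leaf sampled cannot be told apart from boron supply. The design of the series calls the samples of a group biological replicates. By the methods of the study, seeds of the variety Bingtang were first raised into plants. Callus was induced from shoots of these, and the tissue-cultured plants were then obtained through induction of adventitious shoots and roots. All libraries come from a bulk leaf sample, in which fewer cells of a type and less RNA per cell cannot be told apart.

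Plants take up sulfur as sulfate through membrane transporters of the root, the vascular tissue and the leaf, and store part of it in the vacuole. Inside the cell, ATP sulfurylase activates sulfate to adenosine 5′-phosphosulfate (APS), APS reductase reduces APS to sulfite, and sulfite reductase carries sulfite to sulfide. Sulfide then joins O-acetylserine, which serine acetyltransferase makes, in the reaction of cysteine synthase, and the cysteine formed feeds methionine and glutathione. In a side branch, APS kinase phosphorylates APS to the donor that sulfotransferases use. In Arabidopsis, transcripts of many transporters and of APS reductase rise when sulfate runs short.

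Values are FPKM, the reads of a gene per 1000 bases of its length and relative to the mapped reads of the library. The steps between low FPKM values gave 17689233 to 24026181 reads in genes per library. Over the 16421 genes tested, Pearson's r between libraries on the log2(FPKM + 1) scale was 0.911 at the median within a group and 0.893 across groups, and the closest pair was CK1 with T3, at 0.958. Over the sulfur genes it was at least 0.953 within T, 0.933 to 0.967 within CK and 0.816 to 0.936 between groups. These genes include those named by identifier with results of these data known. They also include Cs_ont_4g019130, which was tested only because of its CK values. Such a choice by itself can lower r between groups, so these values are no test of a group difference. Values of r without these genes were not computed. The summed FPKM of 67 antenna and photosynthesis genes was 31489 to 39276 in CK and 36664 in T2, but 22471 in T1 and 23141 in T3. The groups of this sum thus overlapped through T2. Of the 54 of these genes that were tested, 47 had a negative log2 fold change (T minus CK). Their median was −0.36, beside 0.02 for all genes tested. In 10 of them (18.5%, against 3.71% of all genes tested) every T value lay below every CK value. The part of photosynthesis genes in the results below was not tested. The sums of the other tissue lists overlapped between groups as well. Those of 85 phloem or xylem genes were 2657 to 2678 in CK and 2395 to 3892 in T. For 35 stomatal genes they were 340 to 668 and 260 to 793, and for 25 cuticle genes 1061 to 1666 and 855 to 2456. For 88 root hair genes they were 1539 to 1927 and 1582 to 1683.

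The largest rise among the sulfur genes in T was that of the transporter Cs_ont_4g007290, named with results of these data known. Of the genes lower under the criterion below, 4 carry the sulfate transport term. The sole gene of an assimilation step among them was the APS reductase gene Cs_ont_4g019130. Several other assimilation genes had lower values in T without meeting the criterion. The low-value filter asked for 1 FPKM or more in 3 or more libraries, which 45 of the 48 genes had, and the groups were compared by limma on log2(FPKM + 1), where fold changes of low genes are understated. The criterion took the thresholds of the study, a fold change of 2 or more and a p, before adjustment, not above 0.05. The study applied them to DESeq on read counts, and here they were applied to limma, so the calls are not those of the study. Under this criterion, 2 of the 45 genes were higher in T and 6 were lower, 4.44% and 13.3% of those tested. Over all 16421 genes tested, 209 were higher and 178 lower, 1.27% and 1.08%. The median log2 fold change (T minus CK) was −0.14 over the sulfur genes, of which 17 were positive and 28 negative, and 0.02 over all genes tested. Leaving out 1 library at a time placed the sulfur median between −0.16 and −0.02, the last without CK3. Without the 3 genes named by identifier, 42 were tested, 1 was higher and 4 were lower, with a median of −0.10. Cs_ont_4g019130 passed the filter through its CK libraries alone and so had to differ. Without it and Cs_ont_2g023170, 43 were tested, of which 2 were higher (4.65%) and 4 lower (9.3%), with a median of −0.05. These calls still include Cs_ont_4g007290 (higher) and Cs_ont_3g010460 (lower), named with results of these data known. They also include Cs_ont_2g027150 (lower), which reached 1 FPKM in every CK library but in T only in T2.

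Every T value lay above every CK value in 4 of the 45 genes (8.89%, against 4.46% of all genes tested) and below every CK value in 12 (26.7%, against 3.71%). Without the 3 named genes these counts were 3 and 10, and without Cs_ont_4g019130 and Cs_ont_2g023170 they were 4 and 10 of 43. The first pair of counts still includes Cs_ont_4g019130, which had to differ. The second pair still includes Cs_ont_4g007290 and Cs_ont_3g010460, named with results of these data known. No sulfur gene reached a Benjamini-Hochberg adjusted p under 0.05 in limma over the 16421 genes, a level that 1 gene higher in T (0.00609%) and none lower (0.0%) reached in the whole table. At an unadjusted p under 0.05, limma gave 3 sulfur genes higher and 12 lower, beside 2.29% and 2.49% of all genes tested. Without the 3 named genes, 2 of 42 were higher and 10 were lower. The 10 still include Cs_ont_4g019130, which passed the filter through its CK libraries alone. On reads recovered from the FPKM, limma voom gave 0 sulfur genes at the adjusted level. Limma with library weights gave 2, Cs_ont_3g010460 and Cs_ont_2g023170. Both were named by identifier with results of these data known, so neither counts as a test. With 3 libraries against 3, an exact two-sided permutation test of a single gene cannot go below 0.1. The plot of fold changes shows each tested gene by role.

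**Figure D1:**
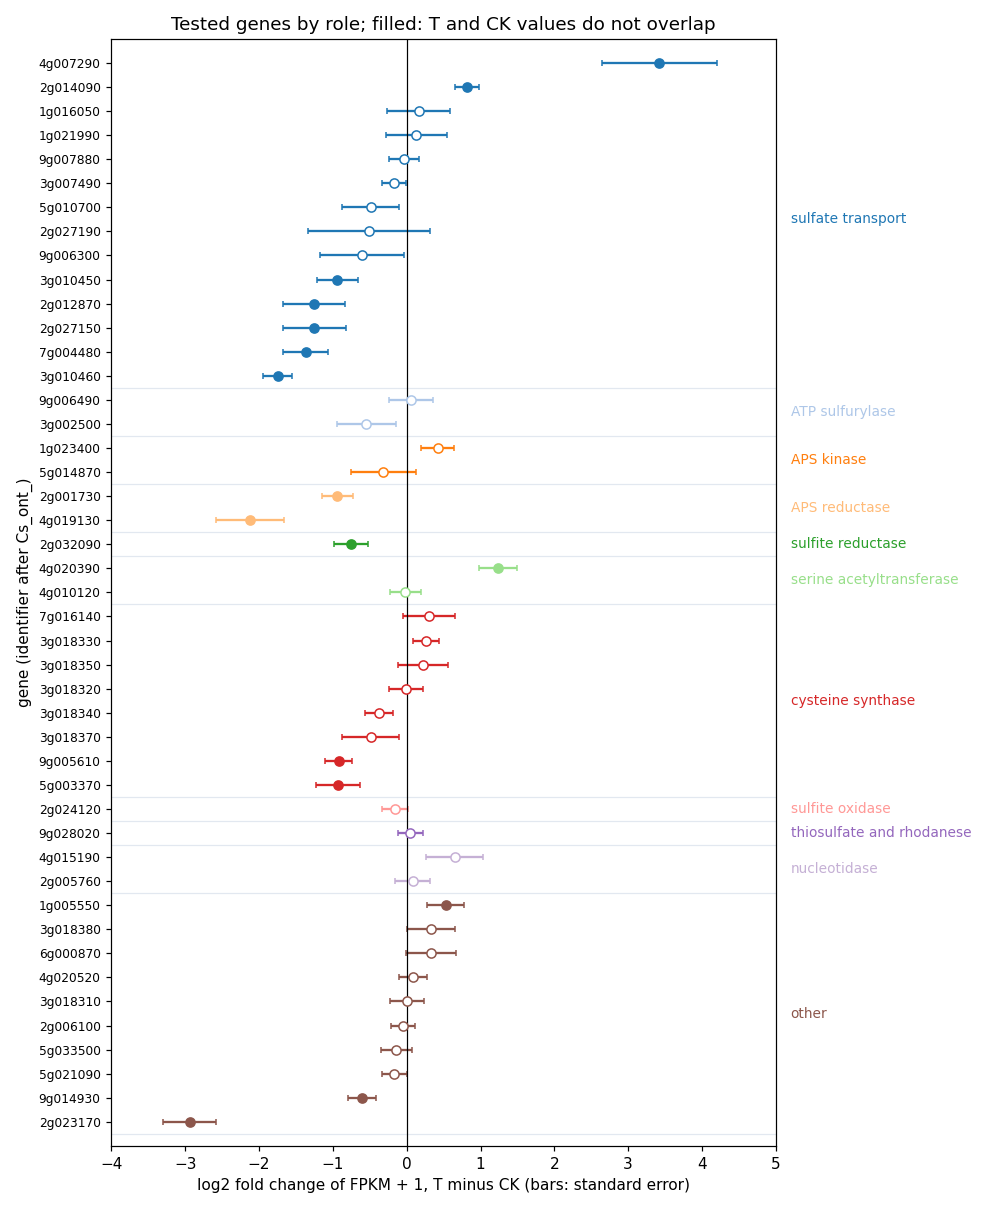
Log2 fold change (T minus CK, on the log2(FPKM + 1) scale) with its standard error for the tested sulfur genes, grouped by role. Cs_ont_4g007290, at 3.42, lies far to the right of the others, and Cs_ont_2g023170, at −2.94, lies farthest to the left.

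Sulfate transporters carry sulfate across membranes, and 10 of the 11 genes with that activity were tested. The level of 1 was higher and of 3 lower under the criterion, which 1.27% and 1.08% of all genes tested met. Of the 10 fold changes 7 were negative, beside 7688 of all 16421. Their median was −0.54 on the log2 scale, beside 0.02 for all genes tested. Of the lower genes, Cs_ont_7g004480 and Cs_ont_2g012870 were not named by identifier. Cs_ont_3g010460 and the higher gene were, with results of these data known. The higher one was Cs_ont_4g007290, at 56.5 FPKM in CK1, 5.43 in CK2 and 25.6 in CK3, against 347 in T1, 212 in T2 and 162 in T3. The groups did not overlap, though the CK libraries alone spanned a wider range in proportion than the T libraries. Mean levels were 29.2 ± 25.7 FPKM in CK and 240.2 ± 95.4 in T (SD of 3 libraries), a ratio of 8.23. The log2 fold change was 3.42 ± 0.78 (SE), with an adjusted p of 0.598 in limma. It met the criterion in all 14 alternatives. Neither counts as a test, because the gene was named with results of these data known. The low value in CK2 bears on the size of the change, since the log2 fold change was 2.55 without CK2 and 4.13 without CK1.

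The most abundant transporter of the control leaves was Cs_ont_3g010460, whose annotation also includes the response to sulfate starvation. It stood at 89.8, 85.9 and 130.1 FPKM in CK1 to CK3 and at 26.6, 30.1 and 30.5 in T1 to T3. The T values lay close together and below the lowest CK value, with a T to CK ratio of 0.285. Its fold change was −1.75 ± 0.20 (SE, log2) with an adjusted p of 0.221 in limma, and it met the criterion in all 14 alternatives. With library weights in limma its adjusted p was 0.0296. None of these counts as a test, because the gene was named with results of these data known. The neighbouring gene in the order of the gene models, Cs_ont_3g010450, is also a transporter and read 37.0, 32.1 and 56.9 FPKM in CK and 20.7, 16.2 and 26.7 in T. Its T values lay below all CK values as well, with a log2 fold change of −0.94 ± 0.28 (SE) that did not reach a fold of 2 and an adjusted p of 0.827 in limma. The criterion was met without CK1 (−1.01), CK2 (−1.11) or T3 (−1.11). Between the neighbours the level of Cs_ont_3g010460 was 2.29 to 2.68 times that of Cs_ont_3g010450 in CK and 1.14 to 1.86 times in T, a ratio chosen after the values were seen. Whether reads could be shared between near-identical copies was not checked.

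Another transporter, Cs_ont_7g004480, had 84.5, 44.1 and 69.8 FPKM in CK1 to CK3 and 21.6, 19.2 and 33.5 in T1 to T3. The groups were separate, the log2 fold change was −1.37 ± 0.31 (SE), and the adjusted p was 0.594 in limma. It met the criterion in all 14 alternatives. The transporter Cs_ont_2g012870 was expressed at a lower level, at 2.88, 9.45 and 9.54 FPKM in CK and 1.88, 2.49 and 2.16 in T. Here CK1 came close to the T libraries. The log2 fold change was −1.25 ± 0.42 (SE) with an adjusted p of 0.917 in limma, and the criterion was no longer met without CK2 (−1.01), CK3 (−1.01) or T1 (−1.18).

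**Figure D2:**
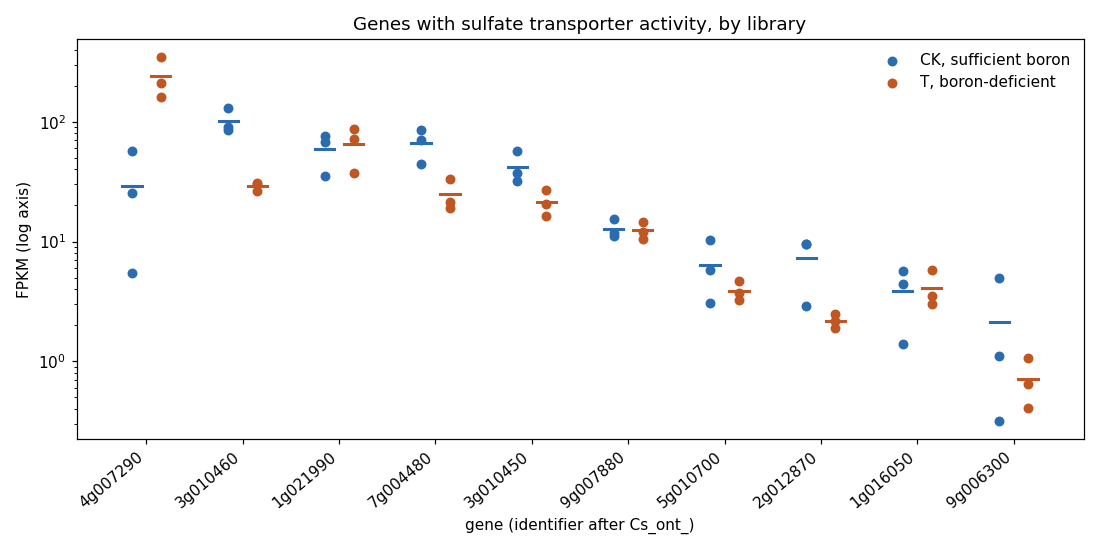
FPKM of the tested sulfate transporter genes in each CK and T library (points, log axis), with the group mean as a line (n = 3). The T values of Cs_ont_4g007290 (162 to 347) lie above its CK values (5.43 to 56.5), and those of Cs_ont_3g010460 (26.6 to 30.5) lie below its CK values (85.9 to 130.1).

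The other transporter genes showed overlapping groups. Cs_ont_1g016050, Cs_ont_5g010700, Cs_ont_9g006300 and Cs_ont_9g007880 had mean levels over the 6 libraries of 1.42 to 12.6 FPKM and log2 fold changes of −0.60 to 0.16. Cs_ont_1g021990, a mitochondrial carrier whose annotation covers dicarboxylates and thiosulfate beside sulfate, had 34.9 to 75.5 FPKM in CK and 37.5 to 87.1 in T, and a log2 fold change of 0.13 ± 0.41 (SE). Cs_ont_4g007310, which lies 1 gene away from Cs_ont_4g007290, was near 0, with at most 0.126 FPKM, and was not tested.

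Summed over the 10 transporters without the mitochondrial carrier, the level was 206 to 323 FPKM in CK and 275 to 435 in T, and the groups overlapped. The makeup of that sum differed. Cs_ont_4g007290 took 19.7%, 2.64% and 7.94% of it in CK1 to CK3 and 79.6%, 69.4% and 59.0% in T1 to T3. The other 9 transporters together came to 242.5 ± 49.5 FPKM in CK and 98.4 ± 12.9 in T (SD over the 3 libraries), 0.406 of the CK level, with no overlap between 200.4 to 297.0 and 88.6 to 112.9. These sums were formed after the gene values were seen and carry no test.

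**Figure D3:**
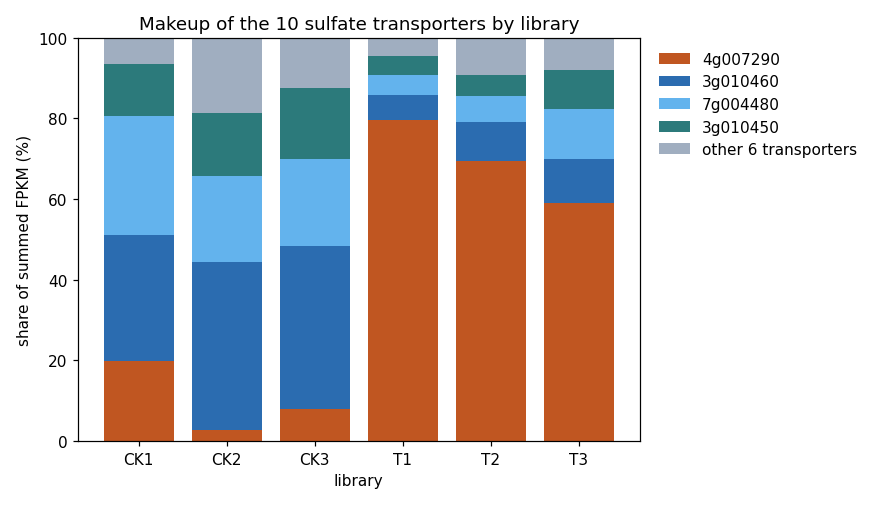
Share (%) of the summed FPKM of the 10 sulfate transporter genes in each library, for Cs_ont_4g007290, Cs_ont_3g010460, Cs_ont_7g004480, Cs_ont_3g010450 and the remaining transporters together. The share of Cs_ont_4g007290 is 2.64% to 19.7% in the CK libraries and 59.0% to 79.6% in the T libraries.

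Genes that carry the transport term without transporter activity were 4. Cs_ont_2g014090, annotated as a cytokinin receptor histidine kinase, read 6.80, 7.65 and 6.95 FPKM in CK and 14.2, 11.6 and 14.4 in T. Its groups did not overlap, and its log2 fold change was 0.82 ± 0.16 (SE), under a fold of 2, with an adjusted p of 0.537 in limma. Cs_ont_2g027150, a short gene model of 159 bases annotated with the responses to sulfate starvation and osmotic stress, had 5, 6 and 12 reads in CK and 0, 5 and 0 in T. Its log2 fold change of −1.25 ± 0.43 (SE) met the criterion with an adjusted p of 0.923 in limma, but not without CK2 (−1.31), CK3 (−1.06), T1 (−1.04) or T3 (−1.04). Pooled reads per library depth gave a CK to T ratio of 4.53 with an exact 95% interval of 1.68 to 15.2, which covers counting error only. Cs_ont_2g027190 and Cs_ont_3g007490, which share its annotation, had overlapping groups and log2 fold changes of −0.51 ± 0.83 and −0.17 ± 0.16 (SE).

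At the first step of assimilation, the main ATP sulfurylase gene Cs_ont_9g006490 showed overlapping groups. It read 131.7, 71.1 and 129.0 FPKM in CK and 99.5, 97.6 and 140.5 in T, with a log2 fold change of 0.06 ± 0.30 (SE). Cs_ont_3g002500, the other tested gene of the step, also overlapped, at 10.6 to 28.5 FPKM in CK and 8.44 to 17.5 in T (−0.55 ± 0.40 SE, log2). Cs_ont_9g006510 was listed at 0 in every library. In the side branch, the APS kinase genes Cs_ont_1g023400 (0.42 ± 0.22 SE) and Cs_ont_5g014870 (−0.32 ± 0.44 SE) had fold changes of opposite sign that did not reach an unadjusted p of 0.05, and the groups of both overlapped. Their sum was 16.8 ± 5.69 FPKM in CK and 16.5 ± 6.03 in the T group (SD, n = 3).

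APS reductase is usually considered the main control point of the pathway. Its gene Cs_ont_2g001730 carried at least 97.5% of the APS reductase FPKM of each library and read 244, 284 and 235 FPKM in CK against 117, 159 and 123 in T. The T libraries lay below all CK libraries, at 0.523 of the CK mean. The log2 fold change of −0.94 ± 0.21 (SE) was just short of a fold of 2 and had an adjusted p of 0.59 in limma. It passed a fold of 2 and met the criterion in 2 of the 14 alternatives, with library weights (−1.09) and without T2 (−1.07). Cs_ont_4g019130, the other APS reductase gene, had 5.63, 1.35 and 5.92 FPKM in CK, which came from 173, 42 and 229 reads, and 0.105, 0.0549 and 0.118 FPKM in T, from 3, 2 and 4 reads. Its T libraries were close to 0. The pooled reads, 444 against 9, gave a CK to T ratio of 48.5 per library depth with an exact 95% interval of 25.3 to 107 for counting error. The fitted log2 fold change was −2.12 ± 0.46 (SE), given as a description because the gene passed the filter through its CK libraries alone.

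Sulfite reductase, which has 1 gene in the list, was also lower. Cs_ont_2g032090 read 155, 111 and 160 FPKM in CK and 68.4, 87.4 and 96.1 in T, with all T values below the CK values. Its change was −0.75 ± 0.23 (SE, log2), short of a fold of 2, with an adjusted p of 0.834 in limma. Set against the main ATP sulfurylase gene of the same library, Cs_ont_2g001730 stood at 1.82 to 3.998 times its level in CK and 0.876 to 1.63 times in T, and Cs_ont_2g032090 at 1.18, 1.56 and 1.24 times in CK and 0.687, 0.896 and 0.684 times in T. Both ratios separated the groups, were chosen after the values were seen, and do not depend on how the libraries were scaled.

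**Figure D4:**
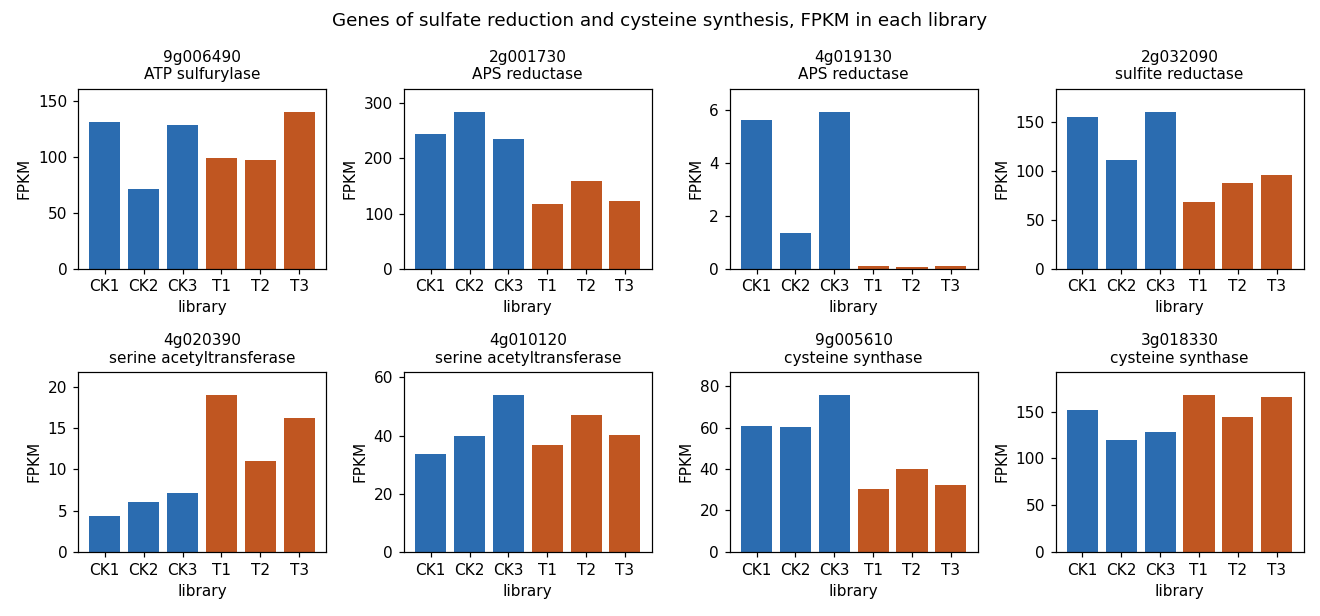
FPKM of genes for the steps from ATP sulfurylase to cysteine synthase, as a bar for each library. The APS reductase gene Cs_ont_2g001730 (117 to 159 in T, 235 to 284 in CK) and the sulfite reductase gene Cs_ont_2g032090 separate the groups, and the ATP sulfurylase gene Cs_ont_9g006490 does not.

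Serine acetyltransferase supplies the carbon skeleton of cysteine, and its genes differed from each other. Cs_ont_4g020390, also annotated with a starvation response, had 4.39, 6.09 and 7.11 FPKM in CK against 19.0 in T1, 16.2 in T3 and a lowest T value, in T2, of 11.01. Its T values were all above the CK values, the ratio of means was 2.63, and the log2 fold change was 1.24 ± 0.26 (SE) with an adjusted p of 0.542 in limma. It met the criterion in all 14 alternatives. The more abundant Cs_ont_4g010120 had 33.7 to 53.8 FPKM in CK and 36.9 to 47.2 in T (−0.02 ± 0.21 SE, log2). The level of Cs_ont_4g020390 was 0.130 to 0.153 of that of Cs_ont_4g010120 in CK and 0.234 to 0.514 in T, another ratio chosen after the values were seen. The sum of both was 48.3 ± 11.6 FPKM in CK and 56.8 ± 1.21 in the T libraries (SD, n = 3), which overlapped.

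Cysteine synthase, the enzyme that joins sulfide to O-acetylserine, is represented by 9 genes, of which 8 were tested and none met the criterion, though 2 did under some of the alternatives. Their sum was 316.3 ± 38.6 FPKM in CK and 312.3 ± 29.1 in the T group (SD, n = 3). Cs_ont_9g005610 was lower in T, at 60.7, 60.4 and 75.6 FPKM in CK and 30.3, 39.8 and 32.3 in T. The groups did not overlap, and the log2 fold change was −0.92 ± 0.18 (SE) with an adjusted p of 0.491 in limma. It met the criterion with library weights (−1.0) and without T2 (−1.04). Cs_ont_5g003370, whose annotation includes L-3-cyanoalanine synthase, the enzyme that detoxifies cyanide with cysteine, read 10.5, 16.5 and 11.1 FPKM in CK and 4.14, 8.94 and 5.92 in T. These groups did not overlap either (−0.93 ± 0.30 SE, log2, adjusted p of 0.892 in limma), and the gene met the criterion in 7 of the 14 alternatives, at −1.32 to −1.0: both smaller pseudocounts, library weights, limma voom, and without CK1, CK3 or T2. The gene with the highest level, Cs_ont_3g018330, read 152, 120 and 129 FPKM in CK and 167, 144 and 165 in T, with overlapping groups and a log2 fold change of 0.26 ± 0.18 (SE). Cs_ont_9g005610 stood at 0.400 to 0.587 of the level of Cs_ont_3g018330 in CK and at 0.181 to 0.276 in T, a ratio chosen after the values were seen.

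Cs_ont_3g018330 belongs to a run of 8 neighbouring sulfur genes, Cs_ont_3g018310 to Cs_ont_3g018380. Of these, 7 were tested, 3 had a positive and 4 a negative fold change, none met the criterion, and all groups overlapped. Cs_ont_3g018360 was listed at 0 in every library. The second gene of the run by level among cysteine synthases, Cs_ont_3g018350, had 50.1 to 99.6 FPKM in CK and 56.3 to 107 in T (0.22 ± 0.34 SE, log2). The run summed to 353 to 559 FPKM in CK and 424 to 551 in T, and reads may be split between its copies, which was not checked. Outside the run, Cs_ont_7g016140 had a log2 fold change of 0.30 ± 0.35 (SE).

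Several further genes of sulfur metabolism lie around this route. Cs_ont_9g014930, annotated with sulfate assimilation and a response to selenium, read 238, 208 and 248 FPKM in CK and 135, 165 and 154 in T. Its groups did not overlap, and its change of −0.61 ± 0.19 (SE, log2) was short of a fold of 2, with an adjusted p of 0.86 in limma. Cs_ont_1g005550, which KEGG places in sulfur and in inositol phosphate metabolism, read 6.65, 5.83 and 6.47 FPKM in CK and 9.47, 13.3 and 6.87 in T. All T values were above the CK values, T3 by a small margin, and the log2 fold change was 0.53 ± 0.25 (SE) with an adjusted p of 0.999 in limma. The nucleotidase genes, whose enzyme removes the by-product of sulfation reactions, had overlapping groups, with log2 fold changes of 0.65 ± 0.39 (SE) for Cs_ont_4g015190 and 0.08 ± 0.24 for Cs_ont_2g005760. Cs_ont_4g015190 met the criterion, as higher, with library weights (1.13) and without T3 (1.03).

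Sulfite oxidase, which returns sulfite to sulfate, was at 17.3 to 25.1 FPKM in CK and 16.7 to 18.4 in T (Cs_ont_2g024120, −0.16 ± 0.18 SE, log2). The thiosulfate sulfurtransferase gene Cs_ont_9g028020 overlapped too, at 84.2 to 107.9 FPKM in CK and 88.4 to 101.8 in T. Cystathionine gamma-synthase, which takes cysteine on toward methionine, was among the most abundant of the list (Cs_ont_6g000870), at 161 to 366 FPKM in CK and 305 to 358 in T, with a log2 fold change of 0.33 ± 0.34 (SE). The sulfur dioxygenase gene Cs_ont_5g033500 had a log2 fold change of −0.14 ± 0.21 (SE). Genes of the pathway with no specific enzyme term, Cs_ont_2g006100, Cs_ont_3g018310, Cs_ont_3g018380, Cs_ont_4g020520 and Cs_ont_5g021090, had log2 fold changes of −0.17 to 0.33 and overlapping groups.

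Cs_ont_2g023170, chosen by identifier, had the highest level of all 48 genes in CK. Its L-cystine transporter term names the movement across a membrane of cystine, the oxidised dimer of cysteine, and its gene model holds 828 bases. It read 1004, 791 and 1152 FPKM in CK1 to CK3 and 91.6, 106 and 203 in T1 to T3. The lowest CK value lay well above the highest T value, and the T mean was 0.136 of the CK mean. The log2 fold change was −2.94, and between −3.28 and −2.72 over the 14 alternatives. The gene was chosen with results of these data known, and its values are given with no test.

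Annotated responses to sulfate or sulfur starvation cut across the roles. Among the 48 genes, 8 carry such a term, 7 were tested, 1 was higher under the criterion (Cs_ont_4g020390) and 2 were lower (Cs_ont_3g010460 and Cs_ont_2g027150), 14.3% and 28.6% beside 1.27% and 1.08% of all genes tested. Of the lower genes, Cs_ont_3g010460 was named with results of these data known, and Cs_ont_2g027150 reached 1 FPKM in T only in T2. Outside the 48, 4 further genes carry a starvation term, and 2 of them were lower under the criterion (50.0%, beside 1.08%). The median log2 fold change of the 4 was −1.02, beside 0.02 for all genes tested. Cs_ont_3g001020 (−0.03 ± 0.57 SE, log2) and Cs_ont_5g050270 (−0.41 ± 0.43 SE) did not meet it. Cs_ont_5g013380 read 145, 100 and 244 FPKM in CK and 11.4, 24.1 and 49.3 in T. Its groups were separate, with a log2 fold change of −2.62 ± 0.56 (SE) and an adjusted p of 0.542 in limma. Cs_ont_9g012720 read 15.9, 22.5 and 68.7 FPKM in CK and 5.84, 8.23 and 13.6 in T, separate by a small margin between CK1 and T3 (−1.64 ± 0.56 SE, log2, adjusted p of 0.923 in limma).

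Routes next to sulfur assimilation were counted the same way, beside 1.27% higher and 1.08% lower over all genes tested. Of 11 tested genes of methionine biosynthesis, 1 was lower under the criterion (Cs_ont_7g019350, −1.69 on the log2 scale), 9.09%, and none was higher. Among 13 tested genes annotated to glucosinolate biosynthesis, 1 was lower (Cs_ont_7g025150), 7.69%, and none higher. Neither the 3 further genes of cysteine biosynthesis, the 1 of glutathione biosynthesis nor the 2 tested sulfotransferase genes met the criterion. In the transport of other anions, 1 of 9 tested phosphate transport genes was higher (11.1%), Cs_ont_9g008120, at 51.8, 25.3 and 48.9 FPKM in CK and 155, 72.3 and 121 in T (1.45 on the log2 scale), and of 12 tested nitrate transport genes none met the criterion.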

How the data were processed

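Leaf RNA of 6 sweet orange libraries was analysed, 3 of CK and 3 of T. The deposited values are FPKM of each gene, made by the authors with HISAT2 and HTSeq (versions not given in the sources used here). Beside these are group averages and the authors' DESeq log2 fold changes, p-values and calls, which were not used, and the GO and KEGG terms by which genes were taken. The members and lists were chosen with earlier results of these data known.

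Groups were compared with limma 3.58.1 in R 4.3.3 (lmFit, eBayes with trend) on log2(FPKM + 1), two-sided, over genes with 1 FPKM or more in 3 or more libraries, with Benjamini-Hochberg adjustment over all of them. Libraries were used as deposited. The steps were tested on simulated data. Reads were recovered from the FPKM steps: 99.96% of 22740 genes came out with a whole length within 0.001 bases. The 14 alternatives were pseudocounts of 0.1 and 0.01, no filter, a filter at 5, TMM scaling, a replicate block, library weights, limma voom on the recovered reads, and leaving out each library. Same-numbered libraries did not deviate together throughout (correlations of 0.282, 0.212 and −0.037), so the numbers were not taken as pairs.

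Genes are named where they met the criterion, had an unadjusted p under 0.05 or groups that did not overlap, were named by identifier, or had one of the 2 highest means of their role. Genes named outside this rule were chosen after their values were seen, and include the members whose groups overlapped and those of neighbouring pathways. None of the gene models matched the RefSeq gene table (0 of the identifiers), so no sequence or coordinate is given. Metabolite and RT-qPCR data were not analysed here.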

Additional observations from a re-analysis of the deposited data

How the results depend on the processing

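Over the 14 alternatives, 2 or 3 sulfur genes were higher under the criterion and 3 to 9 were lower. The shares over all genes tested moved with the setting, from 0.637% to 3.45% higher and from 0.663% to 2.37% lower. Where 9 sulfur genes were lower, these shares were 3.45% and 2.21% with library weights, and 1.58% and 1.43% without T2. The lower count was 3 with the filter at FPKM 5, where 36 sulfur genes were tested and the median log2 fold change was −0.03. Library weights put 2 sulfur genes at an adjusted p under 0.05 in limma (12 of all genes), Cs_ont_3g010460 and Cs_ont_2g023170. Both were named by identifier with results of these data known, so neither counts as a test. The other alternatives gave 0. Leaving out 1 library at a time gave 2 to 3 higher, 4 to 9 lower (4 without CK2, CK3 or T1, and 9 without T2), 0 at the adjusted level, and a median of −0.16 to −0.02 (−0.08 without CK2 or T1, −0.02 without CK3). Calls of Cs_ont_4g007290, Cs_ont_3g010460, Cs_ont_7g004480 and Cs_ont_4g020390 were kept in all 14, and those of Cs_ont_2g012870 and Cs_ont_2g027150 in 10 and 9. Cs_ont_4g007290 and Cs_ont_3g010460 were named with results of these data known, so their kept calls are no test. Calls absent from the reported comparison were gained by Cs_ont_5g003370 in 7, Cs_ont_3g010450 in 3, and Cs_ont_2g001730, Cs_ont_9g005610 and Cs_ont_4g015190 in 2 each.

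With the replicate block, 2 sulfur genes were higher and 6 lower, 0 passed the adjusted level and the median was −0.14. The counts over all genes were 270 higher and 200 lower (1.64% and 1.22%). The numbers of the labels were not taken as pairs, and no called sulfur gene was lost under the block.

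Of 385 fold changes of the 28 named genes under the alternatives, 350 kept direction and side of the criterion, 16 came to meet it, 7 no longer met it, and 12 changed sign, 1 of them with library weights (Cs_ont_2g005760, to −0.05). The other sign changes came from leaving out CK2, CK3, T1 or T3. Settings in which a named gene did not pass the filter are not among the 385. With the filter at FPKM 5 this left out Cs_ont_2g012870, Cs_ont_2g027150, Cs_ont_4g015190 and Cs_ont_4g019130, and without CK1, CK2 or CK3 it left out Cs_ont_4g019130. In the counts of kept calls above, such a setting counts as not kept. Over the fits without 1 library, values ran from −0.15 to 0.25 for Cs_ont_2g005760, −0.23 to 0.21 for Cs_ont_9g006490, −0.17 to 0.16 for Cs_ont_4g010120, −0.01 to 0.51 for Cs_ont_3g018350, −0.26 to 0.00 for Cs_ont_2g024120, −0.01 to 0.58 for Cs_ont_6g000870 and −0.02 to 0.16 for Cs_ont_9g028020. The cause was not tested. The low reads of Cs_ont_4g019130 and Cs_ont_2g027150 limit their fitted sizes, which went to −5.18 and −5.38 with a pseudocount of 0.01.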

Other observations

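The genes whose profile over the 6 libraries was most like those of the genes named by identifier were listed by Pearson's r of log2(FPKM + 1), as a description that mostly carries the difference between the groups. Closest to Cs_ont_3g010460 was Cs_ont_7g026080 (r of 0.995), with no function in the table and a mean of 4.27 FPKM in CK and 0.159 in T. Cs_ont_9g015450, also without a function in the table, was among the 5 closest to both Cs_ont_3g010460 (r of 0.987) and Cs_ont_2g023170 (r of 0.987), at a mean of 124 FPKM in CK and 9.10 in T. For Cs_ont_4g007290 the closest gene was Cs_ont_6g000360, annotated as a metalloendopeptidase, with an r of 0.999 but means of only 60.1 FPKM in CK and 78.9 in T.

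Within the sulfur genes, the r with Cs_ont_3g010460 was 0.979 for the cysteine synthase gene Cs_ont_9g005610, 0.973 for Cs_ont_2g023170, 0.967 for Cs_ont_9g014930 and −0.961 for the cytokinin receptor gene Cs_ont_2g014090. The r between Cs_ont_3g010460 and Cs_ont_4g007290 was −0.831.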
